A study of Rattus norvegicus with 12 samples.

Results

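Cell cycle and DNA replication genes were examined in the left ventricle of rats with heart failure (HF) after myocardial infarction, rat by rat and across the treatment groups. The members were 37 genes listed by symbol for their known roles, and 36 of them were found among the 34700 genes of the deposited table. Ccnb2, a cyclin of mitosis, was not analysed here. RNA sequencing covered 12 male Sprague-Dawley rats (Sham, HF, HFE and BAIBA, 3 each), all operated on at 8 weeks of age, with hearts taken 12 weeks later. The Sham rats had the left anterior descending coronary artery threaded but not tied, and the artery was ligated in the other groups. HF rats stayed sedentary, HFE rats ran on a treadmill 60 min/day and 5 days/week during 8 weeks, and BAIBA rats received β-aminoisobutyric acid (BAIBA), a small molecule released by contracting muscle, by gavage at 75 mg/kg/day during 8 weeks. Ligated rats were divided into groups by ejection fraction. The methods describe an exercise study and a BAIBA study, each with groups that include Sham and HF. The labels do not say which study the Sham and HF rats came from. HFE and BAIBA belong to different studies there, so study and treatment cannot be told apart in BAIBA against HFE. The tissue came from the left ventricle's anterior wall, and the sources differ on the area around the infarct, which the study's methods name for the BAIBA group and its results for both the HF and the BAIBA group. Neither names it for HFE, so the area sampled and the treatment cannot be told apart in BAIBA against HFE. By the wording of the results the same holds for HFE against HF, and by that of the methods for BAIBA against HF. Sham hearts, without ligation, have no such area. According to the methods Sham and HF rats were given water by gavage, while a supplement writes of BAIBA for the Sham and HF groups. The labels name BAIBA for the BAIBA group only and were followed.

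A dividing cell first copies its DNA and then separates the copies. The MCM2 to MCM7 proteins form the ring that, with CDC45 and the GINS proteins, unwinds DNA at replication forks, and PCNA is the sliding clamp that holds the polymerases on DNA. Cyclin-dependent kinase 1 with cyclins A and B starts mitosis, the Aurora and Polo kinases and the BUB proteins order it, and kinesin motors and midzone proteins pull the chromosomes apart and divide the cell. Adult cardiomyocytes rarely divide, and transcripts of this kind in heart tissue can also come from its other cells.

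The promoters of these genes are shown because sequence is a feature that the choice of members did not use. RefSeq sequences of GRCr8, each 250 bases before and 50 bases after the gene start, were matched by symbol for 31 of the 36 members. The promoters of Mcm4, Rrm2, Ccna2, Aurkb and Tpx2 were not analysed here. The motifs searched on both strands were TTTGAA (the cell cycle homology region, CHR, which the DREAM complex and its relatives bind), CCAAT (bound by NF-Y) and TTTNNCGC (E2F-like). Below are the 150 bases before the start of Cenpf, Top2a and Cdk1, genes of cell division, and of Mcm6 and Mcm7, genes of replication, written 5′ to 3′ on the strand of the gene. Capitals mark the motifs, in either orientation and merged where they overlap.
Cenpf (chr13:103760887-103761036, minus strand): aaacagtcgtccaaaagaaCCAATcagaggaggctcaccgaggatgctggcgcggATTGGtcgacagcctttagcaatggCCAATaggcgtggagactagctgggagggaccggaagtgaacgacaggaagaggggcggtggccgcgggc
Top2a (chr10:84473094-84473243, minus strand): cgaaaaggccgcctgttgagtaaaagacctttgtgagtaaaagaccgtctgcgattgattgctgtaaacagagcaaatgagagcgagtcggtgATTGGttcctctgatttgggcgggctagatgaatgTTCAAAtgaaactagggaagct
Cdk1 (chr20:19265143-19265292, plus strand): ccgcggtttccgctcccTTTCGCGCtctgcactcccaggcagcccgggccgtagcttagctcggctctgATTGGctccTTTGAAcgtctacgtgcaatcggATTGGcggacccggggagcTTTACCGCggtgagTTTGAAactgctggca
Mcm6 (chr13:42404353-42404502, minus strand): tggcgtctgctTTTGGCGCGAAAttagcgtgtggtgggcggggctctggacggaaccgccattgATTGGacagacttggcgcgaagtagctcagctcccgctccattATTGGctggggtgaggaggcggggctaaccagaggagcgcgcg
Mcm7 (chr12:22163179-22163328, minus strand): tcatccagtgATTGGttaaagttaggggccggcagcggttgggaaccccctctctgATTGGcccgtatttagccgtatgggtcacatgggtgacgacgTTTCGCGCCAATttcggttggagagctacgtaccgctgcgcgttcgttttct

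TTTGAA was present in 15 of the 31 promoters (48.4%), against 18.3% of the 33469 promoters of the table. Among the members it lay in 14 of 21 promoters of division genes and in 1 of 10 of replication genes, that of Mcm2. Cenpf carries its TTTGAA after the gene start, outside the stretch printed above. CCAAT was present in 24 of the 31 promoters (77.4%), against 37.5% of all, and its share was similar in replication genes (8 of 10) and division genes (16 of 21). TTTNNCGC was present in 9 of the 31 (29.0%), against 4.92% of all, with 6 of 10 in replication genes and 3 of 21 in division genes. These are matches of letters and were not tested as binding sites.

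Members were lowly expressed in every group. By FPKM, which divides reads by gene length and library size and so allows genes to be compared, the median over the 12 rats was highest for Pcna at 20.3, followed by Mcm7 at 5.81, and the lowest was 0.199 for Melk, a mitotic kinase. The median member stood at 0.840 FPKM, with 2.45 FPKM for the median of the 12 replication genes and 0.689 FPKM for that of the 24 division genes. Levels of members and other named genes are from here on in CPM, read counts divided by the scaled library size,, which compare rats but not genes, and marker levels are in FPKM. The total count per rat was 14812541 to 19732588, and members took 0.0137% to 0.0179% of it in 11 rats and 0.0470% in HF 1, the first HF replicate. Reads on 9 members (Gins2, Rrm2, Plk1, Aurka, Ncapg, Kif11, Kif20a, Nusap1 and Anln) are less certain, since each overlaps another protein-coding gene in the RefSeq annotation and the counting is not stated to use strand. In these bulk samples, fewer cells of a type and less RNA per cell cannot be told apart.

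HF 1 stood apart from the other 11 rats in nearly all members. It had the highest level of the 12 rats in 35 of 36 members, against 11.3% of the 15617 genes kept over the 12 rats. The exception was Anln, a scaffold of the cleavage furrow. Its level was over 2 times the highest of the other 11 rats in 19 of 36 members, against 1.57% of genes. HF 1 was singled out after its values were seen, and no test was made of it.

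**Figure D1:**
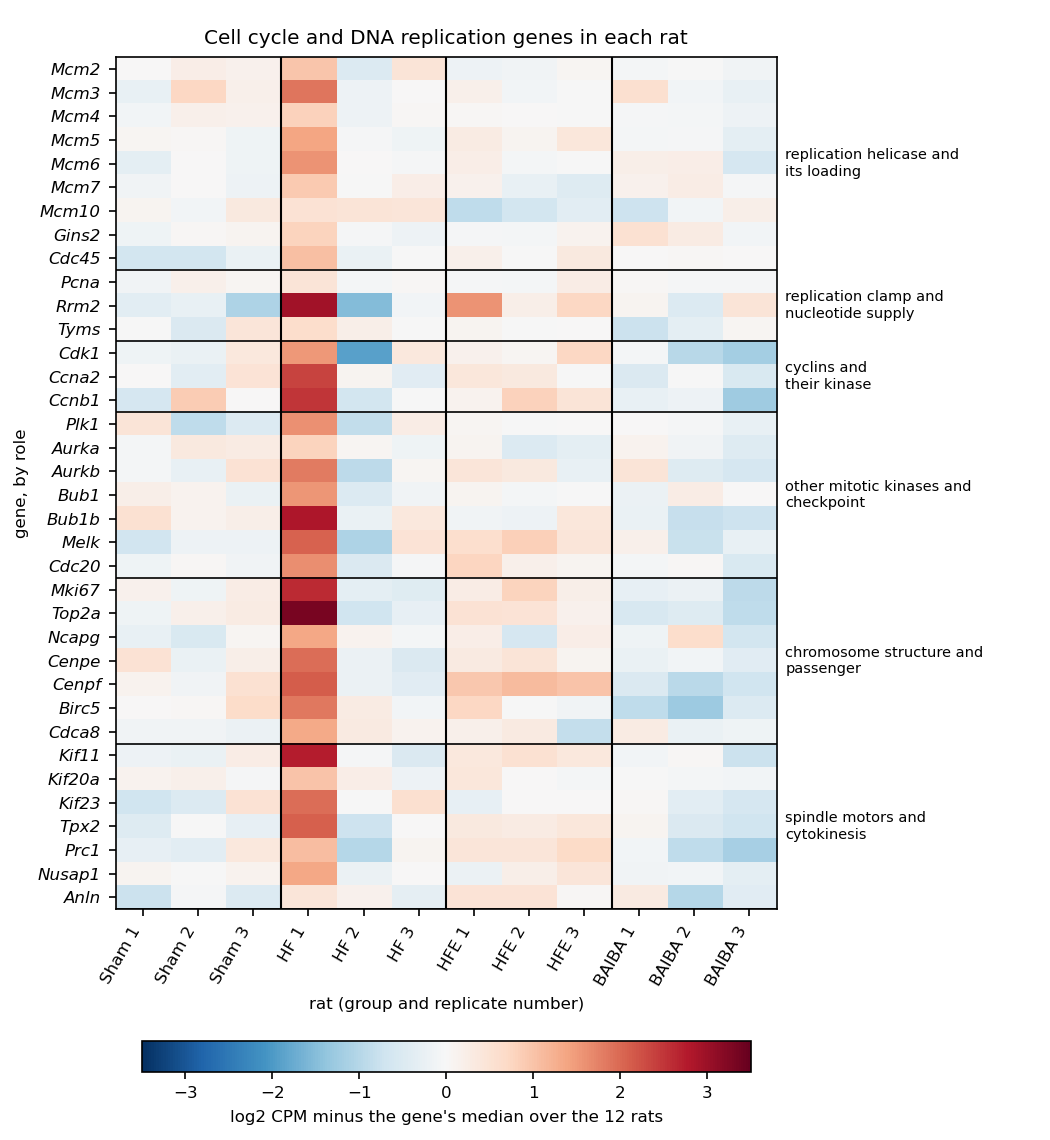
Heatmap of the 36 members (rows, by role) in the 12 rats (columns). Colour is log2 CPM minus the median of the gene over the 12 rats, from blue (lower) to red (higher). The HF 1 column is red throughout, with a median of 1.56 over the members, while the medians of the other 11 rats lie between -0.41 and 0.21.

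The excess in HF 1 was larger in division genes than in replication genes. Relative to the median of the other 11 rats, the level in HF 1 was 1.95 times for the median replication gene and 4.003 times for the median division gene. By role the median was 1.99 times for the helicase and its loading, 1.54 times for the clamp and nucleotide supply, 5.48 times for the cyclins and their kinase, 3.31 times for other mitotic kinases and the checkpoint, 4.25 times for chromosome structure and the passenger complex, and 2.63 times for spindle motors and cytokinesis. Within the roles the ratio still varied, from 1.40 for Pcna to 11.4 for Top2a. Rrm2, the small subunit of ribonucleotide reductase, was an exception among replication genes at 10.6 times, on 69 reads in HF 1 and 1 to 22 reads in the others.

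**Figure D2:**
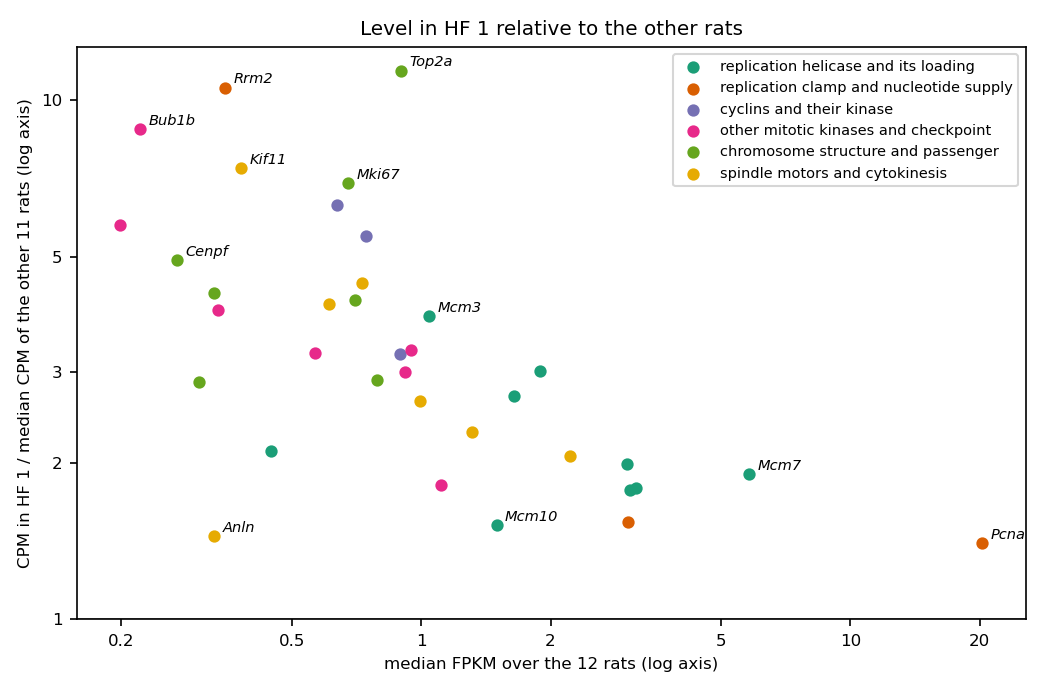
Each point is a member, coloured by role, with its median FPKM over the 12 rats on the x axis (log axis) and its CPM in HF 1 divided by the median CPM of the other 11 rats on the y axis (log axis). Every point lies above 1, Top2a is highest at 11.4, and Pcna, the most expressed member, is lowest at 1.40.

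Some markers of immune cells were also higher in HF 1. The summed FPKM of 5 lymphocyte markers was 102.1 in HF 1 and 2.58 to 11.8 in the other rats, with 4 of the 5 highest in HF 1. Cd3g, a CD3 subunit of the T cell receptor complex, stood at 63.2 FPKM in HF 1 and at most 5.74 elsewhere. The B cell markers Cd79b and Ms4a1 stayed under 1 FPKM in every rat. The sum of 3 neutrophil markers was 18.7 FPKM in HF 1 and 2.64 to 7.97 in the others. Of these, 2 (S100a8 and S100a9) were highest in HF 1. Csf3r, at 0.427 FPKM in HF 1, lay within the range of the other rats (0.178 to 0.727). Sums of the other 8 lists (cardiomyocyte, fibroblast, endothelial, smooth muscle and pericyte, macrophage, erythroid, atrial and mesothelial) lay within the range of the other rats, and no marker was at 0 in all rats. The heart muscle label held in each library, with a summed cardiomyocyte level of 19950 to 24464 FPKM.

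The genes that exceeded the other rats by the widest margin in HF 1, among those at 10 CPM or more there, were not members and were named after their values were seen. Dntt, the terminal transferase of developing lymphocytes, stood at 62.9 CPM in HF 1 and at most 1.29 CPM elsewhere. Cd8b, a co-receptor chain of cytotoxic T cells, stood at 28.4 CPM against at most 1.20 CPM. The part of lymphocytes in the levels of the members was not tested. For the members, the counts and medians of each comparison with the HF group are therefore given with and without HF 1. Single members are given without HF 1 only in part. The wider list below is given with all rats, apart from Ccnd1.

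Among the replication genes, Mcm7, a subunit of the helicase ring, measured 13.1, 14.5 and 12.8 CPM in the Sham rats, 27.0, 14.2 and 17.0 in HF 1, 2 and 3, 15.9, 12.002 and 10.4 in the HFE rats and 15.8, 17.1 and 14.02 in the BAIBA rats. Leaving out HF 1, every pair of groups overlapped. Its gene also holds the miRNAs Mir25, Mir93 and Mir106b, whose precursor reads cannot be separated from it. Cdc45, the helicase cofactor, measured 1.85, 1.82 and 2.48 CPM in Sham, 6.17, 2.47 and 2.93 in HF, 3.33, 2.91 and 3.72 in HFE and 2.98, 3.01 and 2.95 in BAIBA. All HFE and BAIBA rats lay above the Sham rats, while HF 2 lay just below the highest of them.

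Mcm10, which helps to activate the loaded helicase, followed another order than its neighbours. It measured 8.05, 7.03 and 9.60 CPM in Sham, 10.8, 10.4 and 10.2 in HF, 3.998, 4.79 and 5.80 in HFE and 4.55, 7.11 and 8.73 in BAIBA. The 3 HF rats were the highest of all 12 and the HFE rats lay below every Sham and HF rat. In this gene HF 1 did not stand apart, at 1.04 times the highest of the others. Pcna varied little, at 22.01, 27.3 and 25.3 CPM in Sham, 32.8, 23.0 and 24.6 in HF, 23.4, 23.0 and 29.0 in HFE and 24.6, 23.1 and 23.2 in BAIBA.

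Of the cyclins and mitotic kinases, Ccna2 (cyclin A2, active from S phase into mitosis) measured 1.80, 1.37 and 2.55 CPM in Sham, 9.83, 1.91 and 1.33 in HF, 2.40, 2.29 and 1.77 in HFE and 1.24, 1.79 and 1.20 in BAIBA. Aurka, the Aurora kinase of the spindle poles, measured 2.55, 3.38 and 3.26 CPM in Sham, 4.63, 2.78 and 2.39 in HF, 2.87, 1.87 and 2.08 in HFE and 2.92, 2.43 and 1.93 in BAIBA. Bub1b, the checkpoint protein BUBR1 that delays separation until chromosomes are attached, measured 1.33, 0.976 and 1.04 CPM in Sham, 7.03, 0.741 and 1.17 in HF, 0.800, 0.763 and 1.20 in HFE and 0.730, 0.448 and 0.482 in BAIBA. In all of these genes HF 1 was the highest rat, and in Bub1b the 3 BAIBA rats were the lowest of all 12.

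Top2a, the topoisomerase that untangles replicated DNA, measured 4.58, 5.86 and 6.33 CPM in Sham, 52.2, 3.09 and 4.20 in HF, 7.40, 7.15 and 5.74 in HFE and 3.42, 3.71 and 2.71 in BAIBA. Mki67, the proliferation marker Ki-67 that coats mitotic chromosomes, measured 7.36, 5.99 and 8.03 CPM in Sham, 41.5, 5.25 and 4.95 in HF, 7.996, 11.6 and 7.70 in HFE and 5.39, 5.76 and 3.49 in BAIBA. Cenpf, a protein of the outer kinetochore, measured 2.95, 2.47 and 3.98 CPM in Sham, 12.2, 2.35 and 2.02 in HF, 5.26, 5.97 and 5.49 in HFE and 1.85, 1.35 and 1.63 in BAIBA. These genes shared an order once HF 1 was set aside: the HFE rats did not overlap with the BAIBA rats and lay above them, and HF 2 and HF 3 lay below the Sham rats.

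Among the spindle and cytokinesis genes, Kif20a (a kinesin of the central spindle) measured 6.95, 7.22 and 6.14 CPM in Sham, 12.9, 7.41 and 5.59 in HF, 8.40, 6.45 and 5.99 in HFE and 6.23, 6.02 and 5.96 in BAIBA. Kif23, a motor of the central spindle needed for cytokinesis, measured 1.27, 1.497 and 3.07 CPM in Sham, 8.52, 2.10 and 3.19 in HF, 1.73, 2.15 and 2.14 in HFE and 2.19, 1.60 and 1.38 in BAIBA. Neither gene separated any pair of groups. Over the 11 rats without HF 1, the highest level fell on an HFE rat in 18 of 36 members, against 26.3% of genes, and the lowest on a BAIBA rat in 18, against 32.7% of genes. In the 24 division genes each of these counts was 13.

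**Figure D3:**
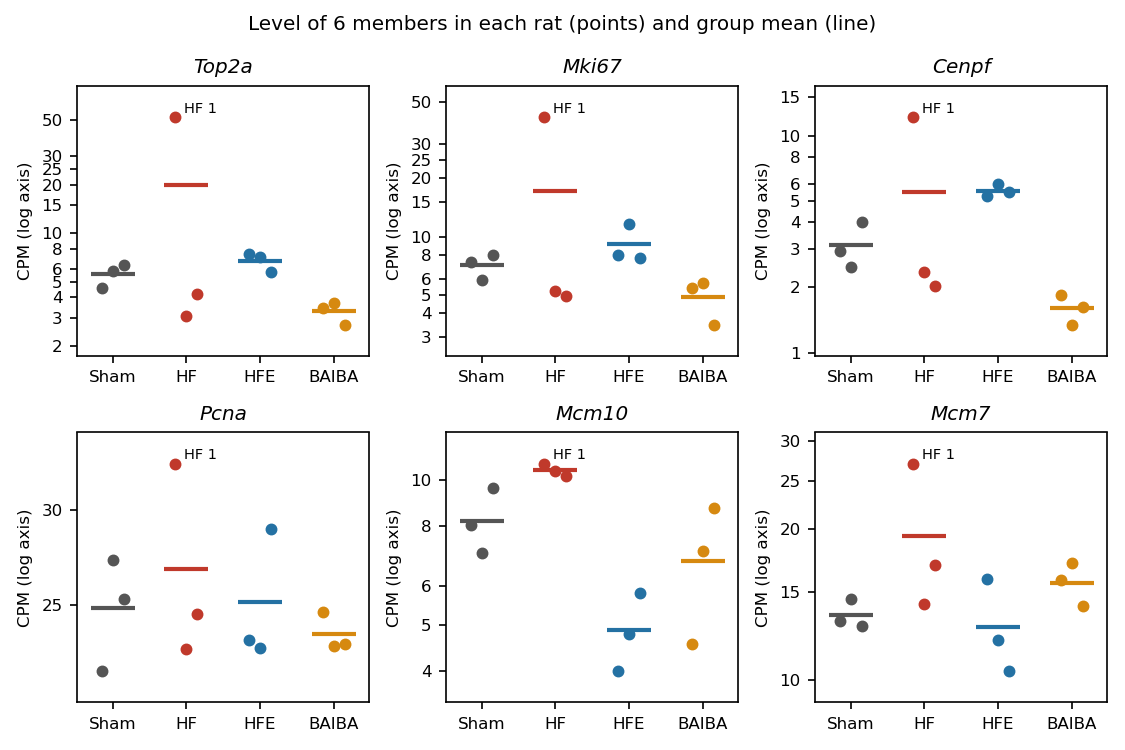
CPM (log axis) of Top2a, Mki67, Cenpf, Pcna, Mcm10 and Mcm7 in each rat (points) by group, with the group mean as a line (n = 3). HF 1, which is labelled, raises the HF mean of Top2a to 19.8 CPM while the other HF rats lie at 3.09 and 4.20, and the 3 HF points of Mcm10 lie together.

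The 6 comparisons of groups were made with edgeR's quasi-likelihood test over all genes, and a call needed a log2 fold change beyond 1 in either direction together with a p under 0.05 after Benjamini-Hochberg adjustment. The p-values rest on the spread between 3 rats a group. Comparisons with a group in common share its rats and are not independent of each other.

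BAIBA against HFE sets the compound against exercise in infarcted hearts, where the study and the area sampled may also differ. It held the only call among the members. Cenpf fell by 1.78 on the log2 scale (SE 0.23, adjusted p = 0.0493 by edgeR), from 5.57 ± 0.359 CPM in HFE to 1.61 ± 0.254 CPM in BAIBA (SD, n = 3). This call was lost with the replicate number as a block (log2 fold change -1.79, adjusted p = 0.0513 by edgeR), in a fit of all 12 rats (-1.79, adjusted p = 0.290), and on leaving out HFE 1 (adjusted p = 0.187), HFE 2 (0.286), HFE 3 (0.113), BAIBA 2 (0.0940) or BAIBA 3 (0.218). The log2 fold change stayed between -1.90 and -1.67 on leaving out any rat. It was 1 of 34 members tested, against 0.0808% of 14844 genes called and 0.0674% called lower. Rrm2 and Birc5 had too few reads to be tested. By DESeq2, Cenpf (adjusted p = 1.43e-05) and Top2a (log2 fold change -1.04, SE 0.28, adjusted p = 0.0161) were called lower, against 1.07% of genes called, and Melk had no adjusted p. With edgeR Top2a gave -1.04 (SE 0.21, adjusted p = 0.174).

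At an unadjusted p under 0.05 by edgeR, 7 members had lower levels in BAIBA than in HFE and 0 had higher levels, against 4.88% and 4.68% of genes. The 7 were Cenpf, Top2a, Prc1, Mki67, Cdk1, Ccnb1 and Tpx2, all division genes. Prc1, which bundles the microtubules of the midzone, had a log2 fold change of -1.18 (adjusted p = 0.255), and Mki67 one of -0.90 (adjusted p = 0.279), neither called by edgeR. All 3 BAIBA rats lay below all 3 HFE rats in 15 of the 36 members, and above them in 0, against 8.24% and 7.34% of genes. Here and in the other comparisons, members without overlap were counted over all 36 found, untested ones included. The shares are over the genes tested, so the sets differ. Birc5, not tested here, is 1 of the 15. Of the 15, 13 were among the 24 division genes (Cdk1, Ccnb1, Bub1b, Melk, Cdc20, Mki67, Top2a, Cenpe, Cenpf, Birc5, Kif11, Tpx2 and Prc1) and 2, Mcm4 and Mcm5, among the 12 replication genes. The median log2 fold change was -0.61 over the tested division genes and -0.06 over the tested replication genes, and 0.00 over all genes.

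The cell type markers also differed between these groups. The cardiomyocyte sum of 6 genes was 23004 to 24464 FPKM in HFE and 20667 to 21489 in BAIBA, and the endothelial sum of 4 genes was 169.8 to 175.6 and 129.2 to 151.1 FPKM. Of the cardiomyocyte genes, Actc1 and Myl2 lay higher in all HFE rats, while Tnnt2, Ryr2 and Tnni3 overlapped. Myh6 went the other way, at 1535 to 2113 FPKM in HFE and 2164 to 3029 in BAIBA. The erythroid sum of 3 genes was 914.1 to 1114 FPKM in HFE and 1310 to 1634 in BAIBA, and the mesothelial sum of 3 genes was 6.93 to 8.58 and 8.89 to 34.6 FPKM. The fibroblast, smooth muscle and pericyte, macrophage, lymphocyte, neutrophil and atrial sums overlapped between the groups. No marker of these lists was at 0 in all rats, and their part in the result was not tested.

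HFE against HF sets exercised against sedentary failing hearts, and the area sampled may also differ. None of the 36 members tested was called by edgeR (0 of 36, against 0.0% of genes), and at an unadjusted p under 0.05 there was 1 with a lower and 0 with a higher level, against 3.29% and 4.34% of genes. That member was Mcm10, with a log2 fold change of -1.10 (SE 0.18, adjusted p = 0.584 by edgeR). By DESeq2 Mcm10 was called lower in HFE (adjusted p = 0.00202), against 0.14% of genes called, and Top2a had no p by DESeq2. It was also the only member without overlap between the groups, where 6.23% of genes lay lower and 8.11% higher. Kif23 had a log2 fold change of -1.19 (SE 0.52, adjusted p = 0.648). Beside these values, the cardiomyocyte sum was 19950 to 21883 FPKM in HF and 23004 to 24464 in HFE, and the macrophage sum of 6 genes was 38.00 to 63.3 and 23.5 to 37.95 FPKM. Of the cardiomyocyte genes Actc1, Tnni3 and Myl2 lay higher in all HFE rats, and the others overlapped. Of the macrophage genes only Cd163 and Mrc1 lay lower in all HFE rats, while Cd68, Csf1r, Adgre1 and C1qa overlapped. The other 8 marker sums overlapped with all rats. Without HF 1 some of these also separated the groups. HF 2 and HF 3 lay at 4.38 and 2.58 FPKM for lymphocytes, against 4.56 to 5.93 in HFE. For smooth muscle and pericytes they lay at 290.7 and 278.4 FPKM, against 200.4 to 274.6 in HFE. Their erythroid sums were 1266 and 1484 FPKM, against 914.1 to 1114 in HFE. The part of these cells in the result was not tested.

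Without HF 1 the direction of the median member in HFE against HF turned. The median log2 fold change over the members was -0.61 with all rats and 0.29 without HF 1. That of the division genes was -0.63 and 0.52, while Mcm10 stayed at -1.07. Kif23 stood at -1.19 with all rats and at -0.39 without HF 1. No member had an adjusted p under 0.05 by edgeR without HF 1, and the lowest was 0.206, for Cenpf with a log2 fold change of 1.36 (SE 0.23). With an unadjusted p under 0.05, 6 members then had higher and 1 lower levels in HFE, against 5.06% and 5.05% of genes. The 3 HFE rats lay above both other HF rats in 12 of 36 members, 10 of them division genes, and below them in 1, against 14.8% and 14.2% of genes.

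HF against Sham asks what the infarct changed. All 34 members tested had log2 fold changes above 0, with a median of 0.69, and none was called by edgeR, against 0.0% of genes. DESeq2 called 0 as well, against 0.161% of genes, but gave no p for Top2a. By edgeR, 0 members had an unadjusted p under 0.05 in either direction, against 2.47% of genes higher and 3.53% lower. The 2 lowest p-values were those of Cdc45, with a log2 fold change of 0.91 (SE 0.39), and Mcm10, with 0.34 (SE 0.15), both at an adjusted p of 0.805. Mcm10 and Cdca8, a subunit of the chromosomal passenger complex, lay higher in all HF than in all Sham rats, as did 5.47% of genes, and 0 members lay lower, against 6.27%.

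Without HF 1 the median of HF against Sham was -0.16. Cdc45 had a log2 fold change of 0.39 without it, and Mcm10 one of 0.32. At an unadjusted p under 0.05 by edgeR, Top2a (log2 fold change -0.62) and Mki67 (-0.49) then had lower levels in HF, with adjusted p-values of 0.563 and 0.571, against 4.25% of genes lower, and 0 members had higher levels, against 4.27%. Both HF rats lay below all Sham rats in Mki67, Top2a and Cenpf, as did 12.3% of genes, and above them in Mcm10 and Cdca8, as did 12.9%. With all rats, no marker sum separated HF from Sham. Without HF 1 the cardiomyocyte sum of HF 2 and HF 3 (20302 and 19950 FPKM) lay below the Sham rats (21038 to 22427). Their erythroid sum (1266 and 1484 FPKM) lay above the Sham rats (688.8 to 1031). The part of these cells in the result was not tested.

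**Figure D4:**
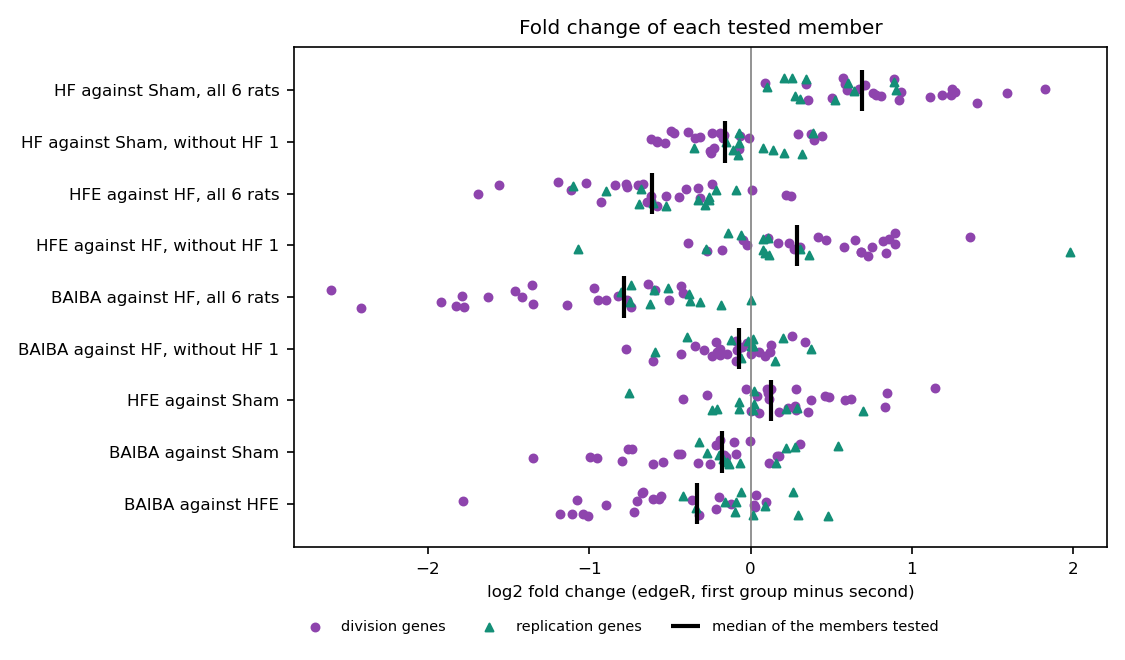
Log2 fold change of each tested member (x axis) in each comparison (rows), with division genes as circles, replication genes as triangles and the median over members as a bar. Comparisons with HF are drawn with all 6 rats and without HF 1. The median of HFE against HF moves from -0.61 to 0.29 without HF 1, and that of BAIBA against HF from -0.79 to -0.07.

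BAIBA against HF sets failing hearts given the compound against untreated ones, and the area sampled may also differ. None of the 34 members tested was called by edgeR, against 0.0% of genes. DESeq2 also called 0, against 0.18% of genes, and again gave no p for Top2a. By edgeR, 4 had lower and 0 had higher levels in BAIBA at an unadjusted p under 0.05, against 2.73% and 2.81% of genes. Bub1b had a log2 fold change of -2.42 (SE 0.90) and Kif23 one of -1.41 (SE 0.54), both at an adjusted p of 0.851. Mcm10, Bub1b, Cenpf and Birc5 (survivin, of the chromosomal passenger complex) lay below all HF rats in all BAIBA rats, as did 5.46% of genes tested. Birc5 was not among the members tested in this comparison.

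Without HF 1, the median of BAIBA against HF was -0.07 and 0 members had an unadjusted p under 0.05 by edgeR in either direction, against 3.93% of genes lower and 3.83% higher. Bub1b then had a log2 fold change of -0.77 (adjusted p = 0.755 by edgeR), and Kif23 one of -0.61 (adjusted p = 0.739 by edgeR). The same 4 members stayed below the other HF rats in all BAIBA rats, as did 13.2% of genes, and Cdc45 lay above them, as did 12.6%. With all rats, no marker sum separated BAIBA from HF. Without HF 1 the cardiomyocyte sum was 20667 to 21489 FPKM in BAIBA, above HF 2 and HF 3 (20302 and 19950). The lymphocyte sum, at 4.44 to 11.8 FPKM in BAIBA, also lay above HF 2 and HF 3 (4.38 and 2.58). The part of these cells in the result was not tested.

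Neither comparison of the treated groups with Sham used the HF rats. HFE against Sham had 35 members tested and none called by edgeR or DESeq2, against 0.0% and 0.46% of genes. At an unadjusted p under 0.05 by edgeR, 6 members had higher levels in HFE (Cenpf, Cdc45, Melk, Tpx2, Anln and Prc1) and 1, Mcm10, had a lower level, against 6.04% and 5.15% of genes. Mcm10 had a log2 fold change of -0.75 (SE 0.20, adjusted p = 0.295) and Cenpf one of 0.83 (SE 0.23, adjusted p = 0.296). All HFE rats lay above all Sham rats in 10 of 36 members and below them in 1, against 9.48% and 8.36% of genes. The median log2 fold change was 0.13 over the tested members. Marker sums that did not overlap between Sham and HFE were those of cardiomyocytes (21038 to 22427 and 23004 to 24464 FPKM), endothelial cells (129.9 to 158.1 and 169.8 to 175.6 FPKM) and macrophages (48.1 to 52.4 and 23.5 to 37.95 FPKM), and their part in the result was not tested. Of the cardiomyocyte genes, Tnnt2, Actc1 and Myl2 lay higher in all HFE rats, while Ryr2 and Tnni3 overlapped. Myh6 went the other way, at 2958 to 3227 FPKM in Sham and 1535 to 2113 in HFE. Of the macrophage genes Csf1r, C1qa and Mrc1 lay lower in all HFE rats, and Cd68, Adgre1 and Cd163 overlapped. Of the endothelial genes Kdr and Egfl7 lay higher in all HFE rats, and Cdh5 and Tie1 overlapped.

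BAIBA against Sham had 34 members tested and none called by edgeR or DESeq2, against 0.0402% and 0.463% of genes (0.0268% lower by edgeR). There were 4 members with lower and 0 with higher levels in BAIBA when an unadjusted p under 0.05 by edgeR was used, against 3.28% and 4.13% of genes. Top2a had a log2 fold change of -0.76 (SE 0.23, adjusted p = 0.560) and Cenpf one of -0.95 (SE 0.30, adjusted p = 0.580). All BAIBA rats lay below all Sham rats in 7 members (Mcm2, Bub1b, Mki67, Top2a, Cenpf, Birc5 and Nusap1) and above them in 1, Cdc45, against 6.09% and 6.59% of genes. The median log2 fold change was -0.18 over the tested members. Marker sums that did not overlap between Sham and BAIBA were those of fibroblasts (524.6 to 532.8 and 541.7 to 713.6 FPKM), erythroid cells (688.8 to 1031 and 1310 to 1634 FPKM) and the atrial list (10.1 to 64.8 and 2.57 to 6.29 FPKM). Of the fibroblast genes only Dcn lay higher in all BAIBA rats, and the others overlapped. Of the atrial genes only Myl7 lay lower in all BAIBA rats, while Sln and Myl4 overlapped. Each erythroid gene lay higher in all BAIBA rats. The part of these cells in the result was not tested.

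A wider list of 108 cell cycle genes, of which 104 were found, held the entry cyclins, kinase inhibitors, E2F and DREAM factors, licensing, polymerase and further mitotic genes. None was called by edgeR or DESeq2 in any of the 6 comparisons, in which 88 to 97 of them were tested. DESeq2 gave no adjusted p for 7 of them in BAIBA against HFE, 3 in HFE against HF and 1 each in HF against Sham and BAIBA against HF. With all rats, 4 of 94 tested were higher and 1 lower in HF against Sham by edgeR at an unadjusted p under 0.05. The shares of all genes were 2.47% and 3.53%. In HFE against HF 1 of 97 was higher and 1 lower, against 4.34% and 3.29%, and in BAIBA against HF 0 of 93 were higher and 6 lower, against 2.81% and 2.73%. In HFE against Sham 5 of 92 were higher and 2 lower, against 6.04% and 5.15%, and in BAIBA against Sham 1 of 88 was higher and 0 lower, against 4.13% and 3.28%. HF 1 was the highest rat in 26 of the 27 further mitotic genes kept over the 12 rats, at a median of 4.68 times the other rats in the median gene. Over all 98 genes kept it was the highest in 61, and the medians of the other lists were 1.18 to 1.45 times. E2f2, an activating E2F factor, stood at 25.1 CPM in HF 1 and 1.32 to 3.72 CPM in the other rats.

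In BAIBA against HFE, 10 of 94 tested genes of the wider list had lower and 1 higher levels at an unadjusted p under 0.05 by edgeR, against 4.88% and 4.68% of genes, and 7 of the 10 were among the 23 further mitotic genes. Ube2c, which supplies ubiquitin at the exit from mitosis, measured 1.40, 1.32 and 0.946 CPM in HFE and 0.449, 0.320 and 0.482 in BAIBA, a log2 fold change of -1.53 (SE 0.39, adjusted p = 0.237 by edgeR). Aspm, a spindle pole protein, measured 3.47, 2.78 and 3.28 CPM in HFE and 1.18, 1.41 and 1.99 in BAIBA, with -1.05 (SE 0.29, adjusted p = 0.268 by edgeR). In both genes the groups did not overlap.

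Of the cyclins that start the cycle, Ccnd1 (cyclin D1) measured 82.3, 85.4 and 84.9 CPM in Sham, 62.3, 75.4 and 50.2 in HF and 89.7, 100.9 and 97.2 in HFE and 84.9, 56.0 and 44.3 in BAIBA. All HF rats lay below all Sham and HFE rats, with a log2 fold change of -0.43 in HF against Sham (adjusted p = 0.805 by edgeR) and 0.62 in HFE against HF (adjusted p = 0.627 by edgeR). In this gene HF 1 lay between the other HF rats, and the change of HFE against HF was also 0.62 without it. Ccnd2 (cyclin D2) had a log2 fold change of -0.59 in BAIBA against HF (SE 0.16, adjusted p = 0.851), with all BAIBA rats below all HF rats.

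The other genes with the lowest p-values in a comparison were Cep55 (abscission) and Rfc2 (clamp loader). As log2 fold changes, Cep55 stood at 2.15 in HF against Sham and -2.54 in BAIBA against HF, and Rfc2 at -0.69 in HFE against HF. These values were fitted with HF 1 included and are not given without it. Cep55 is one of the further mitotic genes, and HF 1 was the highest rat in 26 of the 27 kept. In HFE against Sham the genes with the lowest p-values were Rbl2 (a pocket protein of the DREAM complex) at -0.30 and Kif18b (a kinesin) at 1.12, also as log2 fold changes. In BAIBA against Sham they were Cdkn1c (the kinase inhibitor p57) at 0.77 and E2f2 at -0.70. Their adjusted p-values by edgeR ranged from 0.325 to 0.851.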

How the data were processed

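RNA from the left ventricle of 12 rats, 3 per group, was sequenced from paired-end libraries of oligo(dT)-selected RNA. The authors used HISAT2 for alignment, StringTie for genes missing from the annotation and featureCounts for counting. The deposited counts were whole numbers without normalization, and the deposited FPKM values were derived by the authors from those counts and from gene lengths. Versions and the strand setting are not given in the sources used here. The submitters' processing notes name mm9, a mouse build, while gene identifiers are of rat, so no coordinates were taken from the files. The values were repeated in other deposited tables without a difference.

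Counts of all genes were fitted in R 4.3.3 with edgeR 4.0.16 (TMM, filterByExpr, robust quasi-likelihood fit on the 2 groups compared). SE is the log2 fold change over the square root of F. CPM used TMM factors over 12 rats, and log2 CPM had a prior count of 2. The total count was 14812541 to 19732588 per rat, and precision was taken from the spread between rats. Replicates of a group differed by more than sampling noise (chi-square per degree of freedom 11.8 to 33.7). The fit was also run on simulated counts, and the outcome of that run is not given here.

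The members and all lists were chosen with earlier results of these data known. Values rat by rat were given for called members, the 2 with the lowest p in each comparison, the most expressed of each role, and Mki67, Top2a and Pcna. From the wider list, the 2 lowest p in each comparison were named. E2f2 in HF 1, Mcm2, Rrm2, Anln, Prc1, Cd3g, Dntt, Cd8b and members in short counts were named after their values were seen.

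Replicate numbers were taken from the labels, in which a shared number joins different animals. Correlations of deviations between same numbers were 0.138 to 0.261 in BAIBA against HFE, so the replicate block is printed there, and -0.083 to 0.150 in the other comparisons. Alternatives were DESeq2 1.42.0, RLE normalization, no filter, all 12 rats in 1 fit, the replicate block, no limit on the fold change, and each rat left out. A fit of all rats without HF 1 was chosen after seeing the data. Ccnb2, Cdkn2d, E2f1, Chek1, Nek2 and the marker Pecam1 were not analysed here. A further lymphocyte marker is not reported here and was left out of the sums.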

Additional observations from a re-analysis of the deposited data

How the results depend on the processing

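The calls among the members depended on the tool and on single rats. DESeq2 called 1 member in HFE against HF (Mcm10) and 2 in BAIBA against HFE (Cenpf and Top2a), where edgeR called 0 and 1. In BAIBA against HFE the count was 0 with all 12 rats in 1 fit and 0 with the replicate block, and leaving out each rat gave 0 to 1, with the call lost in 5 of 6 such fits. The fit of all rats without HF 1, chosen after seeing the data, kept the call. Over all settings the adjusted p of Cenpf lay between 1.43e-05 and 0.290. The replicate block changed no other call. With each rat left out, the median log2 fold change of the members ranged from -0.16 to 1.05 in HF against Sham and from -0.93 to 0.29 in HFE against HF, and the values of -0.16 and 0.29 came without HF 1. With all rats in 1 fit without HF 1, an alternative chosen after seeing the data, these medians were -0.15 and 0.29. Of the recomputed counts and medians, 137 stayed within 1.5 times or within the spread of the rats and 13 did not, and no called value changed sign. Of the recomputed fold changes of the members with the lowest p, 135 were classed as the same, 7 as weaker and 2 as stronger. Depth limits the least expressed members, such as Rrm2 with 1 to 22 reads in the 11 rats other than HF 1.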
